A study of Rattus norvegicus with 6 samples.

Results

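A set of 1462 circular RNAs (circRNAs) from rat dental follicle cells, 35.3% of the 4143 circRNAs in the deposited table, was examined because each shares 1 of its ends with another circRNA of the table. Members were chosen by coordinates alone: a span of at least 300 and under 50000 nt, a chromosome and start or a chromosome and end identical to those of another listed circRNA, and no host name of a collagen chain. The rule used no count values. A member does need a listed partner, though, and every listed circRNA had at least 1 count in induction and in control. Of the members, 603 shared the start only, 594 the end only and 265 both ends with different partners. At the limits of the rule, the shortest members spanned 306 nt (an Rbm5 circRNA with 3 induction and 9 control counts and an Fbxl6 circRNA with 4 and 8). The longest member spanned 49962 nt, with 8 induction and 17 control counts. Just outside lay a Sat2 circRNA of 293 nt, with 3 counts in each column, and a Pdlim5 circRNA of 50170 nt, with 3 induction and 7 control counts.

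A circRNA forms when the spliceosome joins a downstream splice donor back to an upstream acceptor, which closes the enclosed exons into a ring without free ends. A gene can give several rings, and when 1 back-splice site is joined to alternative partners the products share an end. Such alternative circularization is widespread in animal cells, and usually 1 of the rings is more abundant than the others. Closed RNAs resist exonucleases and last long in cells, so their level reflects both formation and accumulation. In the following, the start and the end are the lower and the higher coordinate on Rnor_6.0. Strand and exons were not assigned, so neither end is called donor or acceptor.

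The labels name 3 induction and 3 control samples of Sprague-Dawley dental follicle cells, the mesenchymal cells around the developing tooth, isolated from first and second lower molar germs of rats 5 to 7 days old. Induction cells at passage 3 to 4 spent 28 days in alpha-modified Eagle medium with 5% serum and 1% of a liquid that held β-glycerophosphate at 1.000 mol/L, ascorbic acid at 0.028 mmol/L and dexamethasone at 0.010 mmol/L. Control cells had the same medium and serum without the liquid, and in both groups it was changed every 3 days. DNA and linear RNA were removed before sequencing, and the comparison asks which circRNAs differ during osteogenic differentiation in culture. The number of rats is given as 3 in the protocol and as 4 in the design text.

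The table gave 1 pooled count column per group, so no difference below has a replicate check, and no p-value is given. Listed counts summed to 164746 in induction and 137740 in control, and the members held 32.8% and 31.4% of them. Every listed circRNA had at least 1 count in both columns, so isoforms with reads in a single group are not analysed here. Host genes checked the cell label in part. Among 8 mesenchymal marker genes, Prrx1, Runx2 and Vim hosted 8 listed circRNAs with 1424 induction and 704 control counts, and the other 5 genes hosted none. A single Runx2 ring held 1328 and 627 of these counts, and Runx2 is also among the osteoblast genes below. Epithelial markers hosted none. Dock8 among the leukocyte markers had 19 and 29 counts, Flt1 among the endothelial markers 50 and 48, and Dmd among muscle and nerve markers 15 and 10, and none of these was a member. Their part in the results was not tested. In pooled columns, fewer cells of a type and less circRNA per cell cannot be told apart.

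Members had longer spans than circRNAs whose ends were unique. Their median span was 9927 nt (quartiles 3816.5 to 20183.25), against 4413 nt for the 1933 circRNAs with unique ends under the same span limits and without collagen names. Members were also somewhat more abundant, with a median of 11 induction and 10 control counts, against 8 and 7 for unique ends. They mapped to 22 chromosomes or scaffolds and, for 1340 of them, to a single host among 498 genes. Another 120 members carried only names of repeated small RNAs, such as U6 or 7SK, which name no host. Most hosts had few members: 46 hosts had at least 5 and 2 had at least 10, Arhgap10 with 15 and Adamts6 with 12.

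The members formed 837 groups around a shared position, 418 around a shared start and 419 around a shared end. A group held every listed circRNA with that position, so 157 partners outside the span limits entered beside the members, 33 of them shorter and 124 longer. Groups of 2 isoforms were the rule (651), followed by 144 groups of 3, 26 of 4, 11 of 5 and 5 of 6. In the median group the 2 closest free ends lay 9939 nt apart (quartiles 4000 to 19843). In 13 groups they lay only 3 to 6 nt apart. A circRNA that shares both ends belongs to 2 groups, and groups linked in this way are not independent: they joined into 596 connected sets, the largest with 13 members of Arhgap10.

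Isoform shares were compared in the 509 groups that had at least 20 counts in each column (266 shared starts, 243 shared ends, 319 host genes). A share is an isoform's percentage of its group's counts in a column, so it does not depend on how the columns are scaled. A single isoform usually prevailed. Its median share was 78.4% in induction (quartiles 61.3 to 90.5) and 76.8% in control (62.1 to 88.9). It held over 90% in 138 groups in induction and 111 in control, and under 50% in 34 and 28 groups. The distributions in both columns ran broadly from about 50% upwards, so groups with near-equal isoforms were common as well.

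**Figure D1:**
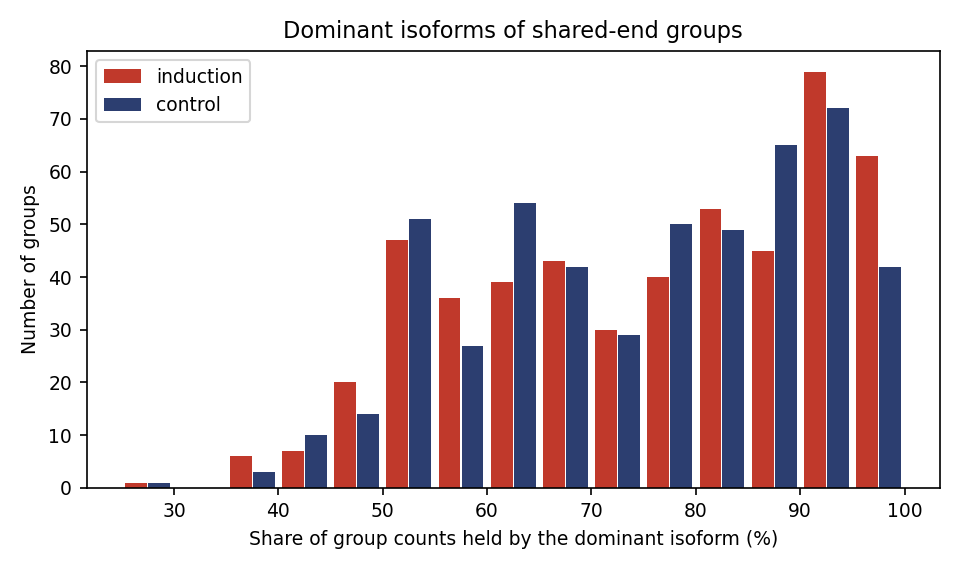
Number of groups (y axis) by the share of group counts held by the most abundant isoform, in bins of 5 percentage points (x axis), for induction and control, over the 509 groups with at least 20 counts in each column. Both columns spread from about 50% to 100%, with medians of 78.4% in induction and 76.8% in control.

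The dominant isoform tended to be the shortest of its group. It was the shortest in 301 groups (59.1%) in induction and 307 (60.3%) in control, the longest in 144 and 140, and of middle length in 64 and 62. Among the 351 groups of 2 the shorter isoform led in 230 (65.5%) in induction and 232 (66.1%) in control. The shortest isoform led in 63.2% of shared-start groups in induction and 64.3% in control, and in 54.7% and 56.0% of shared-end groups. The pattern was thus present in both columns and for both kinds of end.

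Ratios throughout divide induction by control after each column is scaled to the total behind its deposited TPM, 221596 for induction and 203283 for control. The interval is exact (Clopper-Pearson, from the induction share of both counts) and covers counting error only, with every count treated as an independent molecule. It covers neither variation between samples nor PCR copies of the same molecule. A circRNA is called higher or lower when the ratio is at least 2-fold and the interval excludes equal levels.

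The most abundant groups showed how strong this dominance can be. Nfix encodes a nuclear factor I transcription factor, and its circRNA chr19:25886356-25886887 had 3782 induction and 2977 control counts, the highest of any member. It shared its start with a ring of 17585 nt with 9 and 2 counts, and its end with a ring of 20273 nt with 4 and 3 counts. Its share of both groups was above 99% in both columns. Runx2, the master transcription factor of osteoblast differentiation, had a similar arrangement. Its circRNA chr9:18653895-18660843 had 1328 induction and 627 control counts, a ratio of 1.94 (95% counting interval 1.77 to 2.14), and held 99.1% and 98.7% of its shared-start group. The ring that shared its end, chr9:18643596-18660843, had 31 and 5 counts and was called higher in induction, 5.69-fold (2.19 to 18.7). Both Runx2 rings were thus more abundant in induction, and the minor one held 2.28% of the shared-end group in induction and 0.791% in control.

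Tnn encodes tenascin N, an extracellular matrix protein of bone and periodontal tissue. Its circRNA chr13:77861167-77863480 had 2642 induction and 73 control counts, 33.2-fold higher (26.3 to 42.5). It was flanked by 2 small rings of 264 nt outside the span limits. The ring at the shared start had 65 and 8 counts and the ring at the shared end 61 and 13, and both were called higher, 7.45-fold and 4.30-fold. All 3 rings were therefore more abundant in induction, but not in proportion. The long ring held 97.7% of the shared-end group in induction (97.1 to 98.3) and 84.9% in control (75.5 to 91.7), and 97.6% and 90.1% of the shared-start group. Both groups count as share shifts, defined below, although the dominant isoform was the same.

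Several further abundant groups kept nearly the same composition in both columns. Gigyf2, a factor in translational repression, had 5 isoforms at a shared start, led by chr9:94463647-94481167 with 1207 induction and 1264 control counts (90.1% and 90.6% of the group). Cdyl, a chromodomain corepressor, was led by chr17:29730437-29731094 with 673 and 769 counts (93.1% and 89.8%). Samd4a, an RNA-binding protein of the Smaug family, was led by chr15:23792824-23793342 with 353 and 468 counts (94.6% and 95.1%). In all 3 the ratio of the leading ring was below 1, at 0.876, 0.803 and 0.692, and none was called. The group at chr3:81127393, where the circRNAs carry only repeated names, was led by a ring of 15848 nt with 587 and 481 counts (93.6% and 93.8%). The same ring led at its other end, where 1 of its 2 partners carries the name Phf21a, with 83.9% and 87.9%. At the end chr2:33955969, another circRNA carrying only such names, 5036 nt long, had 534 and 325 counts (96.7% and 94.5%).

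Other abundant groups divided their counts between isoforms. Hnrnph1, a regulator of splicing, had 2 rings at a shared end whose starts lie 21 nt apart. The longer had 259 induction and 268 control counts and the shorter 248 and 235, so that the longer held 51.1% (46.6 to 55.5) and 53.3% (48.8 to 57.7). Eri3, a putative exonuclease, had rings of 9954 and 33517 nt at a shared start, and the shorter held 61.2% and 63.5% with 314 and 289 counts. In neither of these groups did the intervals separate between the columns. Eri3 had share shifts at 2 other shared positions. At the end chr5:136471341 the ring of 33517 nt held 90.9% and 79.0%, with 199 and 166 counts. At the start chr5:136420692 a ring of 27087 nt with 70 and 52 counts held 84.3% and 58.4%, beside a ring of 50650 nt, over the span limit, with 13 and 37. Uvrag, which acts in autophagy and endosome traffic, had at the end chr1:164064815 a leading ring of 18714 nt with 791 and 799 counts (59.9% and 64.1%) and a longer ring of 39298 nt with 424 and 383 counts (32.1% and 30.7%). Ttc3, a ubiquitin ligase, had at the end chr11:34614139 a ring of 1513 nt with 742 and 493 counts and a ring of 2601 nt with 240 and 237. The Ttc3 short ring held 75.6% in induction (72.7 to 78.2) and 67.5% in control (64.0 to 70.9), a share shift of 8.03 percentage points.

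The 5 groups with 6 isoforms showed graded sets rather than a single ring with rare variants. Uxs1 makes UDP-xylose, the sugar that starts proteoglycan side chains, and 6 of its rings shared the end chr9:11219449. The leading ring of 10416 nt had 211 induction and 216 control counts, so that its level was alike, yet it held 55.5% of the group in induction (50.4 to 60.6) and 72.5% in control (67.0 to 77.5). The longer rings of 16779 nt (45 and 17 counts) and 25211 nt (29 and 8 counts) were called higher, 2.43-fold (1.36 to 4.53) and 3.33-fold (1.48 to 8.42). This was the only one of the 5 groups with a share shift. The Uxs1 ring of 2196 nt, with 59 and 38 counts, also shared its start with a ring of 114494 nt, over the span limit, which had 7 and 36 counts and was called lower, so that the short ring held 89.4% of that group in induction and 51.4% in control. Adamts6, a secreted metalloproteinase, had at the end chr2:34503654 a leading pair of rings whose starts are 4 nt apart, with 119 and 94 counts in induction and 89 and 77 in control. Its ring of 27574 nt was called higher with 27 and 8 counts.

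In the remaining groups of 6, the share of the leading isoform had overlapping intervals in the 2 columns. Agtpbp1, which removes glutamates from tubulin, was led at a shared end by a ring of 15885 nt with 54 induction and 47 control counts (53.5% and 48.0%). Kmt2e, a chromatin protein of the lysine methyltransferase family, was led at a shared start by a ring of 15564 nt with 73 and 81 counts (48.7% and 45.8%). Atrnl1, an attractin-like membrane protein, was led by a ring of 13736 nt with 53 and 49 counts (54.6% and 62.0%). None of the isoforms of these 3 groups was called.

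A change of dominant isoform between the columns was found in 51 of the 509 groups (10.0%). Over all listed circRNAs, collagen groups included, the same comparison gave 12.4% of 611 groups. The other 458 groups had the same dominant isoform in both. Most changes were between isoforms of near-equal abundance: the median dominant share in the 51 groups was 55.6% in induction and 58.6% in control, and their median total was 88 counts, against 143.5 in groups without a change. Only 4 changes, in Gnptab, Abi2, Arhgap10 and AI314180, had each dominant isoform at least 2-fold over the other in its own column.

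A change was termed firm when the exact interval of the newly dominant isoform's share, among the counts of both isoforms, lay above 50% in induction and below 50% in control. This held for 2 groups (0.393%), against 4.09% over all groups. A share shift was recorded when the intervals of at least 1 isoform's share did not overlap between columns. It was measured on the most moved of the isoforms with separate intervals. Share shifts were found in 55 groups (10.8%), against 18.7% over all groups. Both shares were below those of the whole table, which includes the collagen groups. Of the 55 shifts, 39 came without a change of dominant isoform, and 35 of the 51 changes came without a shift. The shifts measured 6.70 to 64.4 percentage points, and 34 were of at least 20 points. In the median group the most moved isoform changed by 7.87 points, and in 305 groups (59.9%) by under 10.

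**Figure D2:**
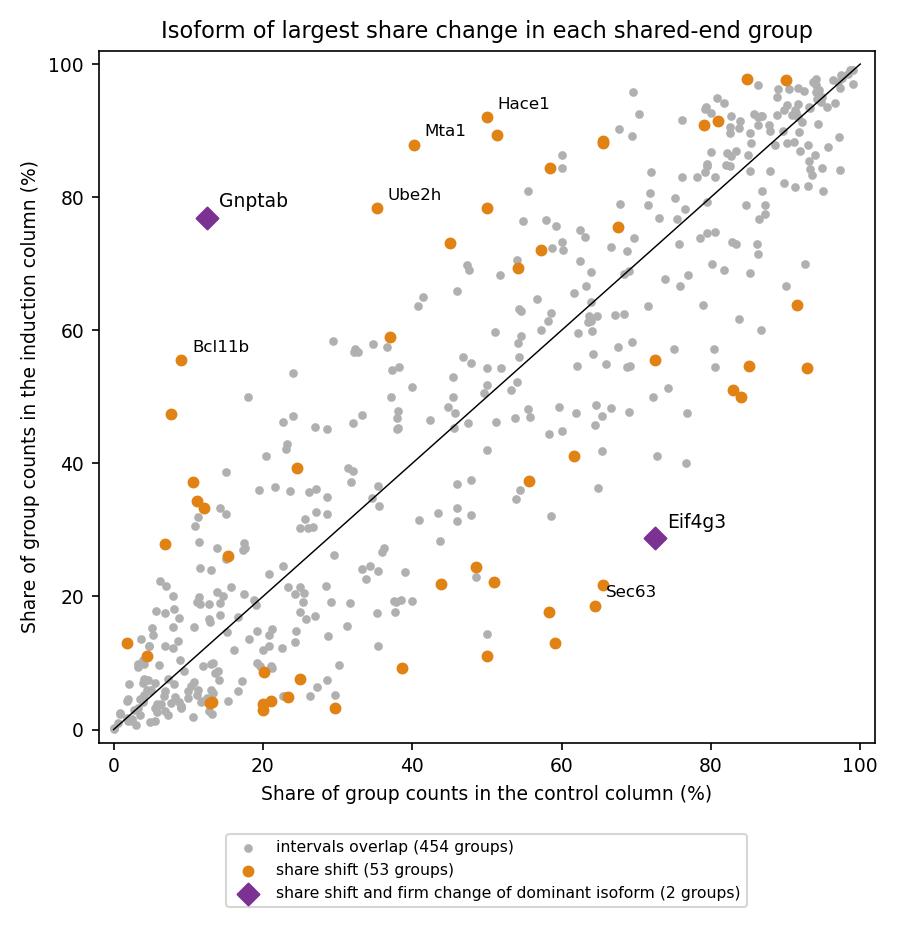
Share of group counts held by the most moved isoform of each of the 509 groups, in the induction column (y axis, %) and the control column (x axis, %), with the diagonal marking equal shares. In 305 groups the share moved by under 10 points. Orange points and diamonds mark the 55 share shifts, which measure 6.70 to 64.4 points, and 34 of them measure at least 20 points, where 83 groups moved by over 20 points.

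Shared starts and shared ends gave like frequencies, with 26 shifts among 266 start groups and 29 among 243 end groups. The shifts had no common direction in length. The mean span, weighted by counts, was longer in induction in 33 of the 55 groups and shorter in 22, and over all 509 groups it was longer in 240 and shorter in 269. Collagen groups, which the rule leaves out, had a higher count and more shifts. Their median was 952 counts per group, against 140 here, and 53 of 76 shifted (69.7%). Among groups with at least 200 counts, 23 of 167 shifted here (13.8%) and 52 of 67 collagen groups (77.6%). Only the minimum was matched, and the median totals of these groups were still 327 and 1184 counts. The difference itself was not tested.

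Gnptab had the largest shift. The gene encodes subunits of the phosphotransferase that marks lysosomal enzymes with mannose 6-phosphate, and its 2 rings shared the start chr7:28987514. The longer ring, chr7:28987514-28992637, had 30 induction and 3 control counts, and the shorter, chr7:28987514-28990116, had 9 and 21. They were called in opposite directions, the longer 9.17-fold higher (2.85 to 47.0) and the shorter 2.54-fold lower (1.12 to 6.31). The longer ring held 76.9% of the group in induction (60.7 to 88.9) and 12.5% in control (2.66 to 32.4).

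Eif4g3, a scaffold of the translation initiation complex, gave the other firm change, among 3 rings ending at chr5:156463365. The shortest ring, chr5:156461278-156463365, had 35 induction and 9 control counts and held 53.0% and 22.5% of the group. The middle ring, chr5:156454276-156463365, had 19 and 29 counts and held 28.8% and 72.5%. Among the counts of these 2 rings, the shortest held 64.8% in induction (50.6 to 77.3) and 23.7% in control (11.4 to 40.2), so the lower bound in induction was barely above 50%. The longest ring had 12 and 2 counts and was called higher, as was the shortest, 3.57-fold (1.68 to 8.44).

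**Figure D3:**
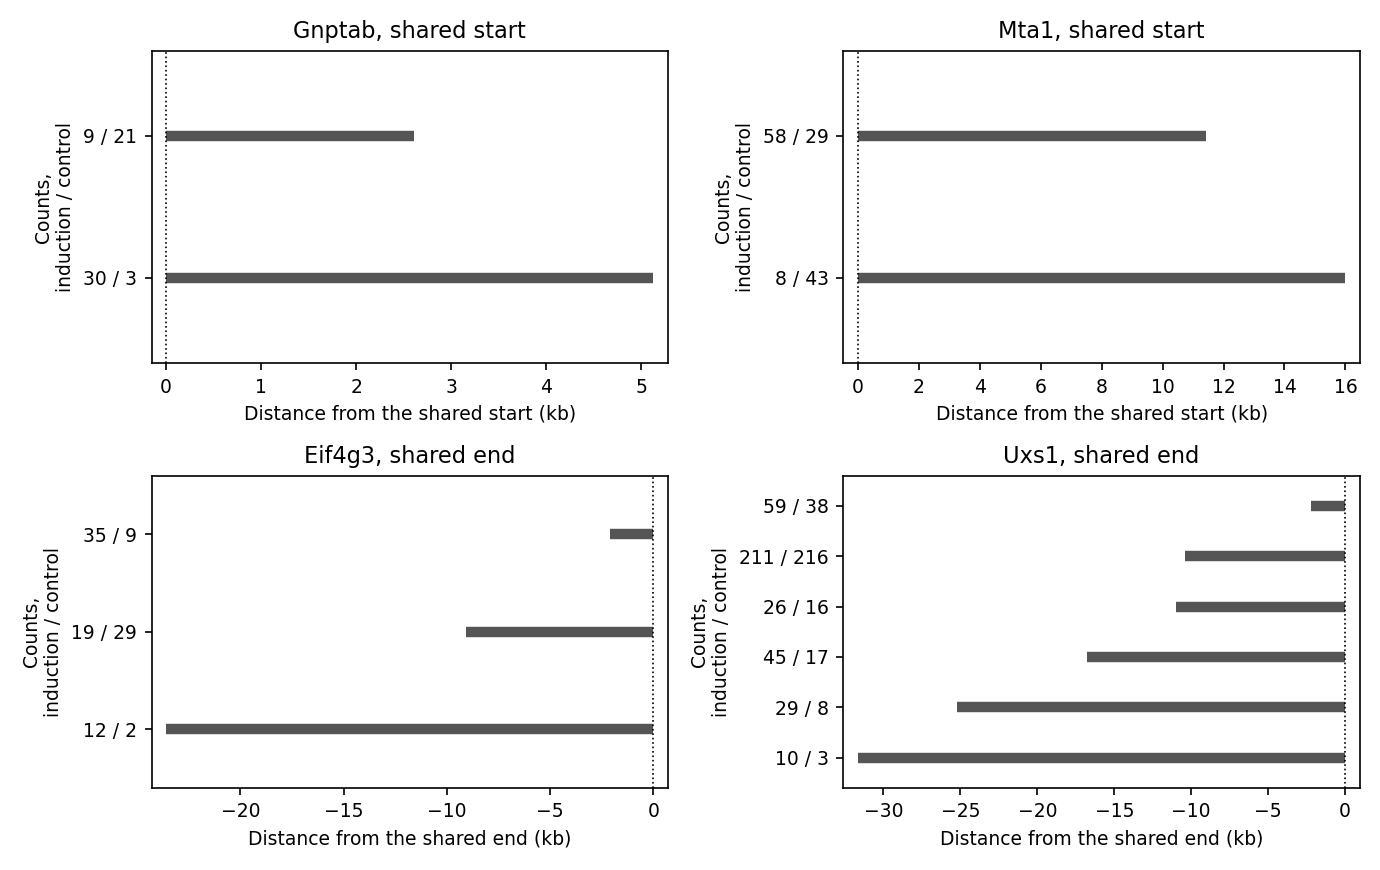
Extent of each isoform (bars; x axis, distance from the shared position in kb) for the groups of Gnptab, Mta1, Eif4g3 and Uxs1, each isoform marked with its induction and control counts. In Gnptab the longer ring has 30 induction and 3 control counts, whereas in Mta1 the longer ring has 8 and 43.

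Mta1, a subunit of the NuRD chromatin remodelling complex, moved the opposite way in length. At the start chr6:137924572 its shorter ring of 11436 nt had 58 induction and 29 control counts, and its longer ring of 15992 nt had 8 and 43. The longer ring was called 5.86-fold lower (2.72 to 14.4), and the shorter ring held 87.9% of the group in induction (77.5 to 94.6) and 40.3% in control (28.9 to 52.5). Bcl11b, a zinc-finger transcription factor, had 2 rings at the start chr6:131912740 whose ends lie 3 nt apart. The ring ending at 131913102 had 30 induction and 5 control counts and that ending at 131913105 had 24 and 50, a share of 55.6% in induction and 9.09% in control for the shorter ring. These rings were called in opposite directions, 5.50-fold higher and 2.27-fold lower. Ends 3 nt apart cannot be assigned to separate splice sites without sequence, and the group is lost when such ends are merged.

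In other large shifts a single ring moved against a steady partner. Ube2h, a ubiquitin-conjugating enzyme, had at the end chr4:57561542 a longer ring with 83 induction and 12 control counts, 6.35-fold higher (3.45 to 12.8), and a shorter ring with 23 and 22. The longer ring held 78.3% and 35.3%. Hace1, a HECT-type ubiquitin ligase, had at the end chr20:50687868 a shorter ring with 2 induction and 16 control counts, called 8.72-fold lower (2.05 to 78.2), beside a longer ring with 23 and 16. Hace1 was the only one of the 10 largest shifts in which the ring that led in induction was not outnumbered in control, where both rings had equal counts.

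The remaining large shifts rested on few counts, 45 to 74 per group in both columns together, as did Gnptab with 63 and Hace1 with 57. Sec63, part of the endoplasmic reticulum translocation machinery, had at the end chr20:47522647 a shorter ring with 35 induction and 11 control counts, called 2.92-fold higher, and a longer ring with 8 and 20, called 2.73-fold lower. Ext2, a heparan sulfate polymerase, had at the end chr3:82725485 a longer ring with 28 and 10 counts, called 2.57-fold higher, and a shorter ring with 6 and 14, not called. Abi2, an adaptor of the WAVE actin regulatory complex, had at the start chr9:67242046 a ring of 15498 nt with 5 and 19 counts, called 4.14-fold lower, and a ring of 39980 nt with 16 and 8. Arhgap10, a GTPase-activating protein, had at the end chr19:34346224 a ring of 35475 nt with 3 and 13 counts, called 4.72-fold lower, and longer rings with 10 and 5 and with 10 and 4. In Abi2 and Ext2 the longer ring led in induction, and in Sec63 the shorter. In Arhgap10 the 2 longer rings tied in induction with 10 counts each, and the longest of them was over the span limit.

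**Figure D4:**
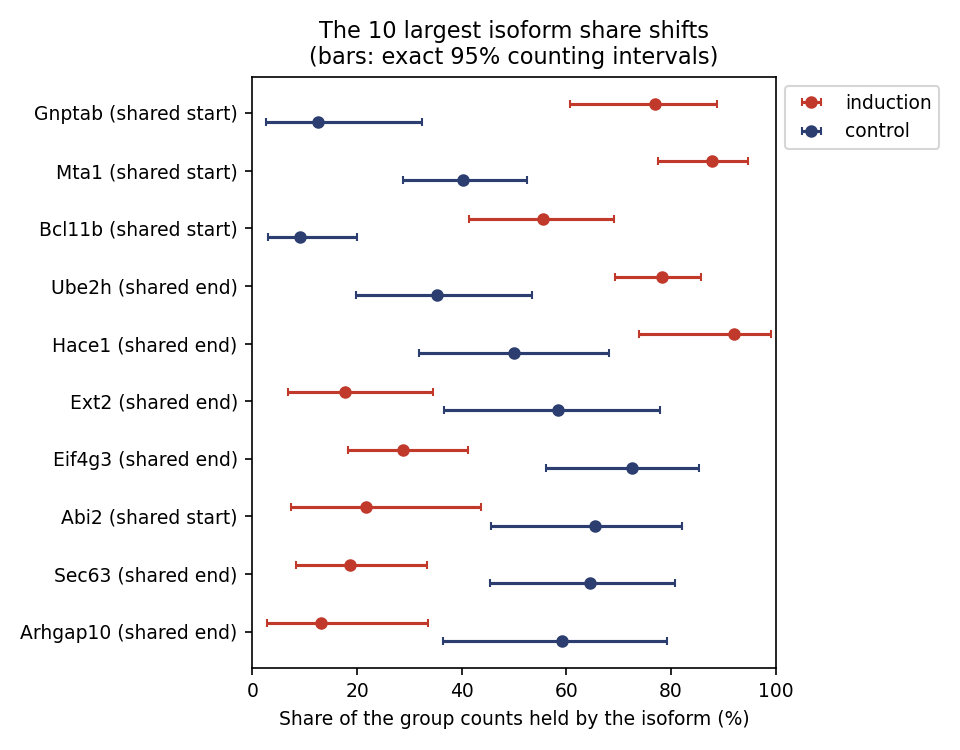
Share of group counts (x axis, %) held by the most moved isoform in the 10 groups with the largest shifts, for induction and control. Points are shares and bars exact 95% counting intervals. The 10 were taken from groups with a share shift, so their intervals do not overlap by definition. The largest shift is in Gnptab (76.9% and 12.5%) and the smallest of the 10 in Ext2 (17.6% and 58.3%).

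Called member by member, 135 circRNAs were higher in induction, 115 were lower and 1212 were neither. The 250 called make 17.1% of the members, against 18.5% of all 4143 circRNAs (9.22% higher and 9.29% lower) and 17.1% of those with unique ends. Among circRNAs with at least 20 counts in both columns together, 24.9% of the members were called, against 29.7% of those with unique ends and 30.2% over the table, and this difference was not tested. The median log2 ratio of the members was 0.01, against -0.09 for unique ends and -0.05 over the table. Their summed counts gave a ratio of 1.15 (1.13 to 1.16), against 0.993 (0.978 to 1.01) for unique ends and 1.10 (1.09 to 1.11) over the table. The ratio over the table restates that listed circRNAs held 74.3% of the total behind the TPM in induction and 67.8% in control. The ratios of members and of unique ends rest on the same totals. The Tnn ring alone held 2642 of the 54042 member counts in induction and 73 of the 43267 in control. The split depended on scaling: with the totals of the listed counts, which move every log2 ratio by -0.13, 115 members were higher and 141 lower. The 690 members that led a group in at least 1 column held 83.2% of member counts in induction and 81.1% in control, and 86 of them were higher and 66 lower. Of the other 772 members, 49 were higher and 49 lower. Leading members were picked by their counts, so a large part of the counts is theirs by selection. Their median was 24.5 induction and 22 control counts, against 6 and 6 for the others, and the difference in calls was not tested.

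The measured log2 ratios of isoforms that share an end correlated only loosely. Over 448 pairs of circRNAs that share an end, with at least 20 counts each, the median absolute difference of their log2 ratios was 0.73, with an upper quartile of 1.30. Across these pairs, ordered by span, the log2 ratios correlated with Pearson's r of 0.32 and Spearman's rho of 0.30. This describes the pairs of 2 columns, in which a circRNA can stand in several pairs. Among the 448 pairs, 32 had both isoforms called in the same direction, 4 in opposite directions and 141 only 1 called. For 437 pairs of members with the same host but no shared end, the median difference was 0.81 and the correlations 0.24 and 0.20, with 28 pairs called together and 6 in opposite directions. The median lower count of a pair was 37 with a shared end and 34 without. How far counting error widened the differences and weakened the correlations was not tested.

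**Figure D5:**
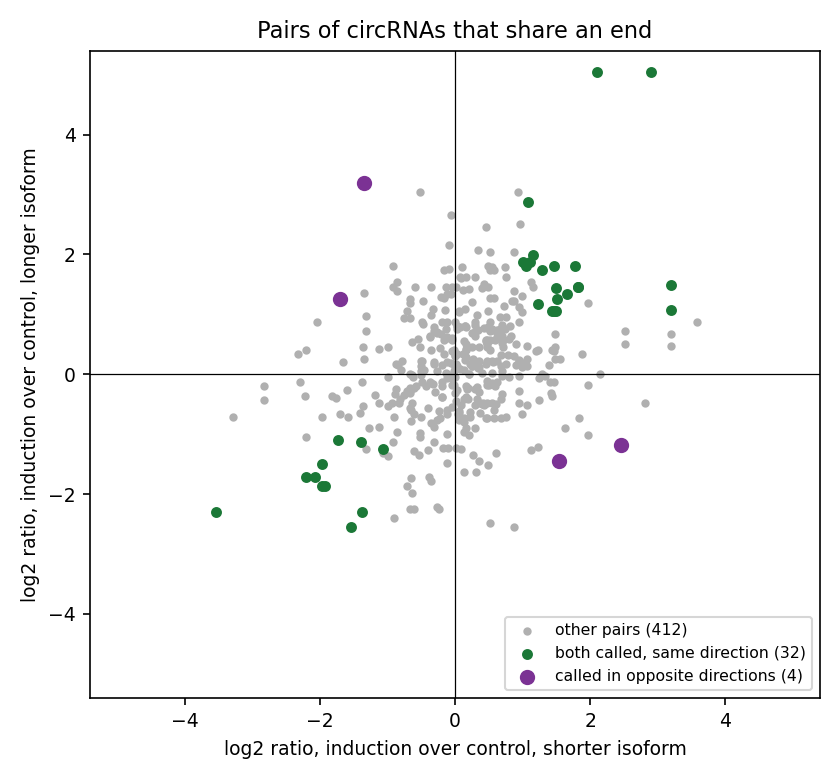
Log2 ratio of induction over control for the shorter (x axis) and longer (y axis) isoform of 448 pairs that share an end and have at least 20 counts each. Of these, 32 pairs have both isoforms called in the same direction and 4 in opposite directions, and these 4 lie in the upper left and lower right quadrants.

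Opposite calls within a group occurred in 5 groups, besides 35 groups whose calls ran in the same direction. Gnptab, Bcl11b and Sec63 are given above. Tcf4, a basic helix-loop-helix transcription factor, had at a shared end a ring of 46652 nt with 15 induction and 2 control counts, called higher, and a ring of 639 nt with 2 and 12, called lower. At the start chr1:11910137, without a single host, a ring of 542 nt had 13 and 39 counts and was called 3.27-fold lower, and a ring ending at 11966518, longer than the limit of the rule, had 26 and 10 and was called 2.39-fold higher.

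The members with the largest ratios towards induction, after Tnn, had few control counts, so their folds have wide intervals. Rictor, the defining subunit of mTOR complex 2, had 44 induction and 3 control counts for chr2:56061126-56069928, 13.5-fold higher (4.31 to 67.7). Its partner at the same start had 8 and 2. Rb1, the retinoblastoma tumour suppressor, had 26 and 2 counts for chr15:55151603-55154467, and its partner 2 and 3. Hadhb, a subunit of the mitochondrial trifunctional protein of fatty acid oxidation, also had 26 and 2 counts for chr6:27575763-27582987, while its partners at the same end had 14 and 7 and 3 and 4. In these 3 genes no partner was called. Zmym4, a zinc-finger protein, had 36 and 4 counts for chr5:144931944-144932532, and its partner 3 and 6. Itgbl1, an integrin-beta-like matrix protein, likewise had 36 and 4 for chr15:110234718-110265737, but its partner had 54 and 26.

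Among the rings without a host of their own, 1 had a partner called with it. At the start chr15:23605382, a circRNA carrying only repeated names had 24 induction and 3 control counts, 7.34-fold higher. Its partner in Gmfb, the gene of glia maturation factor beta, had 129 and 56. The partner was called higher as well, though not with the totals of the listed counts. At the start chr2:247636989, a further circRNA with such names had 18 and 2 counts, and its partners, not called, had 16 and 21 and 4 and 3.

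Lower in induction were 10 named members with 2 to 8 induction and 18 to 43 control counts. Klhl2, a Kelch-family adaptor of ubiquitin ligases, had 3 induction and 32 control counts for chr16:26755422-26767549, 11.6-fold lower (3.64 to 59.3), and its partner at the same start was called lower too, with 6 and 27. Lin54, a DNA-binding subunit of the DREAM complex, had 5 and 24 for chr14:10786399-10794860, and the partner at its start was called lower with 4 and 15. These were the 2 of the 10 with a partner called in the same direction, and with the totals of the listed counts the partner of Itsn1 was lower as well. Usp25, a deubiquitinase, had 2 and 21 counts for chr11:15457479-15461262, beside a partner with 5 and 3. Nedd4, a HECT-type ubiquitin ligase, had 4 and 26 for chr8:79330088-79331358, whereas the leading ring at that start had 59 and 62. Itsn1, a scaffold of endocytosis, had 6 and 29 for chr11:31943121-31955266, beside a partner with 28 and 48.

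The other members among the 10 had partners that were not called. Rbbp6, a ubiquitin ligase that binds RB1, had 2 induction and 18 control counts for chr1:192954816-192955267, and its partner 12 and 18. Pank1, a pantothenate kinase of coenzyme A synthesis, had 3 and 18 for chr1:253120469-253134791, and its partner 8 and 9. Ccdc171 had 2 and 21 for chr5:101695303-101697843, with a partner of 2 and 3. Ccdc132, a subunit of an endosomal tethering complex, had 8 and 42 for chr4:28474639-28478841, with a partner of 2 and 3. Mta1, given above, completes the 10.

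Among 31 osteoblast and bone genes, 7 hosted members: Bmpr2, Cdh11, Ltbp1, Nfib, Nfix, Runx2 and Tcf4. Of their 17 circRNAs, 4 were higher, 1 was lower and 12 were neither, where 9.22% of all circRNAs were higher and 9.29% lower, with a median log2 ratio of 0.29 against -0.05 over the table. With the totals of the listed counts, 3 were higher and 1 lower. Among 8 groups with a gene of the list as host and at least 20 counts per column, 1 of them in Acvr1 with a member that has no host of its own, none changed its dominant isoform. Ltbp1, which binds latent TGF-beta in the matrix, had the 1 share shift, at the end chr6:21354603. Its ring of 19838 nt had 433 induction and 187 control counts, 2.12-fold higher (1.79 to 2.54) but under 2-fold with the totals of the listed counts, its shorter ring had 41 and 47, and the longer ring held 91.4% and 79.9%. A Runx2 ring elsewhere in the gene, of 19700 nt, had 7 and 15 counts and was not called. Nfib, another nuclear factor I gene, had a ring of 30549 nt with 16 and 3 counts, called higher.

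Of 34 matrix genes other than collagens, Adamts6, Crim1, Plod2 and Tnn hosted 20 members, of which 5 were higher, 4 lower and 11 neither, against 9.22% higher and 9.29% lower over all circRNAs. Their 14 large groups had 5 shifts and 1 change, against shifts in 10.8% and changes in 10.0% of the 509 groups with members, and 18.7% and 12.4% over all groups. The 20 members come from 4 genes. Plod2, a collagen lysyl hydroxylase, had a long ring called higher with 16 induction and 3 control counts beside a short ring that was not called (1.17-fold). Crim1, a membrane protein that binds bone morphogenetic proteins, supplied all 4 lower calls. Its ring chr6:871525-872927 had 22 and 79 counts, 3.91-fold lower (2.42 to 6.60), and 3 further rings had 10 and 35, 17 and 57, and 17 and 44. The fifth had 22 and 33 and was not called. All 5 Crim1 members thus had lower counts in induction, a ring longer than the limit had 2 and 2, and none of the 3 Crim1 groups with at least 20 counts per column had a share shift.

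Adamts6 contributed 3 of the 5 shifts, and Tnn the other 2. At the end chr2:34404958, shared with an Adamts6 ring, a ring starting at 34373875 that carries only repeated names had 19 induction and 42 control counts. It so held 19 of 38 group counts in induction and 42 of 50 in control. At the start chr2:34430585 the ring of 4178 nt had 47 and 78 counts and held 51.1% and 83.0%. The same ring held 69.1% and 88.6% at its shared end. In all 3 groups the ring that dominated in control still had at least as many counts as its partners in induction. The 1 change in the matrix list was in the Adamts6 rings at the end chr2:34517560, whose starts lie 4 nt apart, with 41 and 28 and with 39 and 51 counts.

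The 41 genes widely described as circRNA hosts in human and mouse hosted 85 members in 21 genes, with 13 higher, 4 lower and 68 neither, a median log2 ratio of 0.25, and 5 changes and 3 shifts in 40 large groups. Over the table, 9.22% of circRNAs were higher and 9.29% lower, and of the 509 groups with members 10.0% changed and 10.8% shifted (12.4% and 18.7% over all groups). With the totals of the listed counts, 10 of the 85 were higher and 6 lower.

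Arhgap10 had the most members, 15, with summed counts of 616 in induction and 363 in control, a ratio of 1.56 (1.37 to 1.78). Only 3 of the 15 were called, 2 higher and 1 lower. Its leading ring chr19:34249087-34272145 had 187 and 103 counts, 1.67-fold higher (1.30 to 2.14) and so under the 2-fold limit. The ring with the same start and an end 47 nt further had 49 and 13 and was called 3.46-fold higher (1.85 to 6.95). These rings shared their ends with rings that start at 34266719, which had 47 and 34 counts and 28 and 24. Of 23 regulators of circRNA formation, only Rbfox2, a splicing factor, hosted a member, with 9 and 6 counts.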

How the data were processed

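Members, gene lists and named items were chosen with earlier results of these data known. The labels name 3 induction and 3 control samples. Per the file headers, the deposited table held 1 whole-number count column per group. The circRNA caller, its filters and the way libraries were joined (sums, means or other) were not given in the sources used here. Per the submitters' processing notes, FastQC and BWA were used with Rnor_6.0. The deposited TPM was the count over a column total times 1000000, without length correction. The deposited log2 ratio is of induction over control, and the deposited p-value and FDR compare the pooled columns. Of these only the FDR was used, in an alternative.

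Ratios used the totals behind the TPM, and shares and ratios had exact 95% Clopper-Pearson intervals (Python 3.11.15, scipy 1.17.1, pandas 2.3.3). Host names that spread beyond 1 chromosome or 5 Mb (61 names) were dropped, and the single name left was the host. Of 498 hosts, 469 matched the RefSeq table of GRCr8 by symbol and 18 by an older symbol, and that table was used for names only. Named were the 10 shared-start and 10 shared-end groups with most counts, firm changes, the 10 largest shifts, the 5 groups with most isoforms, the 10 largest called ratios in each direction with at least 20 counts, and members hosted by the gene lists. Items outside this rule (partners of named rings, opposite calls, further Arhgap10, Adamts6, Uxs1 and Eri3 groups) were chosen after their values were seen. Some items under the rule are not reported here. edgeR 4.0.16 gave TMM scaling only. The calculations were tested on simulated data. With 1 pooled column per group, no test across samples could be made.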

Additional observations from a re-analysis of the deposited data

How the results depend on the processing

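No paired analysis was possible because the table's columns carry no sample number, 1 pooled column standing for each group, so neither a fit with the replicate number as a block nor leaving out a replicate was run. Of 34 alternative values of the counts and medians, 25 stayed close to the reported ones. With a 4-fold threshold, 94 members were called (38 higher, 56 lower). Changes of dominant isoform numbered 107 with a minimum of 10 counts per group and column and 19 with 50. Margins chosen after seeing the data gave fewer: 4 changes had a 2-fold margin on both sides and 2 were firm, and with the minimum of 50 counts none of the 19 was firm. The median dominant share in induction was 75.0% with the minimum of 10 and 81.4% with 50, and in control it was 81.0% with 50. Shifts of at least 20 percentage points, also chosen afterwards, numbered 34. Taking 1 group per connected set left 41 changes, 41 shifts and 2 firm changes in 364 groups, and merging ends within 10 nt left 48 changes and 53 shifts in 504. With the members-only rule there were 39 shifts in 440 groups. TMM scaling called 134 members higher and 116 lower, and the authors' deposited FDR under 0.05 with 2-fold called 104 and 84. The members with the 10 largest ratios in each direction kept their calls under both scalings. With the listed totals, the higher calls of the Ltbp1 ring and of the Gmfb partner were lost, and the partner of Itsn1 and the shorter Ext2 ring became lower calls. Depth limits many members: 671 of 1462 had under 20 counts in both columns together.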

Other observations

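Some hosts combined 2 starts with 2 ends in all 4 possible ways. There were 27 such sets, 1 without a single host and the others in 17 hosts, and sets in 1 host overlap. Irak3, an inhibitor of Toll-like receptor signalling, had its highest counts, 112 in induction and 46 in control, in the innermost ring chr7:64959567-64961215, beside 26 and 6, 15 and 5, and 2 and 3 in the other three. In Ap3b1, a subunit of the AP-3 adaptor, the inner start with the outer end led with 77 induction and 74 control counts, against 10 and 10, 9 and 3, and 3 and 4. The innermost ring had the highest summed count in 7 of the 27 sets and the outermost in 4.

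Ends that lie 3 to 6 nt apart occurred in 13 groups. Canx, the endoplasmic reticulum chaperone calnexin, had rings of 1 start with ends 4 nt apart, of which the longer had 56 induction and 37 control counts and the shorter 3 and 11. Dpp8, a dipeptidyl peptidase, had starts 3 nt apart with 9 and 4 counts for the longer ring and 4 and 9 for the shorter. Eri3 had starts 6 nt apart at both of 2 ends, and the earlier start had more counts at each: 70 and 52 against 36 and 18, and 13 and 37 against 7 and 7. Whether such ends are separate splice sites was not tested.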
